A study of Arabidopsis thaliana with 2 samples.

Results

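The genes described here are the protein-coding genes that lie around the centromeres of the 5 Arabidopsis thaliana chromosomes. They were taken by locus code, in which the number runs along the chromosome, from AT1G34600 to AT1G46000, AT2G05000 to AT2G13000, AT3G28600 to AT3G44000, AT4G02800 to AT4G08500 and AT5G27000 to AT5G36000. A gene entered when it had a probe set assigned to it alone, and genes with symbols of 10 large families (UGT, GST, EXP, XTH, CESA, CSL, WRKY, MYB, NAC and BHLH) were left out, which removed 4. This gave 640 genes with 646 probe sets, out of 13286 genes with a single-gene probe set in the probe set annotation used here. The arms, chosen in the same way outside these limits, gave 11481 genes for comparison.

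The study compared seedlings of the ros1-1 mutant, stated by the submitters to be in the C24 background, with seedlings of the C24 wild type. Both had grown for 15 days on MS medium at 22 °C with 16 h of light and 8 h of darkness. Each genotype was measured on 1 Affymetrix 3′ expression array, so no test is possible, no p-value is given, and every difference below describes these 2 arrays. The labels do not say whether the wild type carried the luciferase reporter of the line in which ros1-1 was isolated.

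ROS1 is a DNA glycosylase that cuts 5-methylcytosine out of DNA, so that an unmethylated cytosine can be put back, and it is known for keeping genes next to transposons free of spreading methylation. The sequence around plant centromeres is rich in transposons and their remains, is heavily methylated and is packed as heterochromatin, with active genes lying between these repeats. The comparison asks whether genes in that setting had other transcript levels when ROS1 was impaired. Transcript levels of whole seedlings cannot tell fewer cells of a type from less RNA per cell.

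Median signals were 213 in ros1-1 and 216 in C24_WT, on a scale shared by the arrays. Signals under a floor of 132, the 40th percentile of both arrays, were raised to it, and genes that reached this floor in at least 1 genotype are called measured. The ratio is log2 of the ros1-1 signal over the C24_WT signal. Probe sets of the same gene scattered about their gene's mean ratio with an SD of 0.19 on the log2 scale, over 61 genes of the whole array, and this is the sole estimate of error available. Variation between plants, RNA extractions or labelling reactions is not part of it. Leaf markers (RCA, LHCB4.1 and LHCB4.2) and root markers (PYK10, EXPA7 and EXPA18) reached the floor in both genotypes. The log2 ratios were 0.21 for RCA, -0.15 for LHCB4.1 and -0.29 for LHCB4.2, and 0.08 for PYK10, 0.33 for EXPA7 and 0.51 for EXPA18. All 3 root markers were thus higher in ros1-1 and 2 of the 3 leaf markers lower, and the part of this in the ratios below was not tested. These were 3 of 9 leaf markers and 3 of 4 root markers with a named probe set, and the lists for mature seed and flower had 0. The level of ROS1 itself was not analysed here, so the mutation could not be checked against the labels.

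The regions were rich in pseudogenes relative to protein-coding genes. The gene table listed 1653 protein-coding genes and 3194 pseudogenes there, or 1.93 pseudogenes for each protein-coding gene, against 0.0640 in the arms. The pseudogene class of this table may include loci derived from transposons. The region of chromosome 3 was highest, with 2.29 pseudogenes for each protein-coding gene, and that of chromosome 1 lowest, with 1.60. Of the protein-coding genes of the regions, 644 (39.0%) had a single-gene probe set, against 44.9% in the arms. The lowest share was that of chromosome 2, at 29.8%. The annotation assigned no gene to 8730 probe sets, so a gene without a single-gene probe set here may still be on the array. Genes without such a probe set are not part of the shares below. Of the 640 genes kept, 379 (59.2%) stood directly next to a pseudogene, against 7.95% of arm genes.

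Many of these genes gave little signal in either genotype. Of the 640 genes, 258 (40.3%) were measured, against 61.2% of arm genes, and 382 reached it in neither genotype. Taken by array, 37.7% of the genes reached the floor in ros1-1 and 39.4% in C24_WT, against 59.1% of arm genes in ros1-1 and 58.8% in C24_WT. The median signal of all 640 genes was 71.1 in ros1-1 and 70.0 in C24_WT, while that of arm genes was 198.4 in ros1-1 and 198.2 in C24_WT. Signals of different probe sets are not on 1 scale of transcript level, so these medians describe the arrays only. The median over the measured genes around the centromeres, which had to pass the floor, was 436 in ros1-1 and 422 in C24_WT. The regions differed in this share. It was 30.4% on chromosome 2 and 30.2% on chromosome 3, 41.1% on chromosome 1, 47.0% on chromosome 4 and 50.4% on chromosome 5. The arms of single chromosomes ranged from 59.4% to 62.9%. Dividing each region at the quartiles of its gene order, 34.2% of the 322 inner genes and 46.5% of the 318 outer genes were measured. Inner means the middle of the gene order within the limits used, and distance to the centromere was not measured.

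The share of measured genes was lower where more pseudogenes were near. With 0 pseudogenes among the 10 nearest loci (5 on each side), 57.5% of 40 genes around the centromeres were measured. Most of these 40 genes lay in the region of chromosome 4, where 47.0% of all genes were measured. This class was thus not separate from that region, and the classes were not split by chromosome. With 1 to 2 the share was 50.6% of 156 genes, with 3 to 4 it was 39.9% of 153, and with 5 or more it was 32.6% of 291. Arm genes ran in the same order, at 63.7%, 56.7%, 49.9% and 45.4%, and in each class the genes around the centromeres had the lower share. The median ratio did not follow the same order: over measured genes it was 0.02, -0.02, -0.05 and -0.02 in the 4 classes around the centromeres. The SD of the ratios, over genes that reached the floor in both genotypes, was 0.17, 0.24, 0.21 and 0.26 there. In the arms it was 0.26, 0.27, 0.31 and 0.34. These SDs were not matched on signal, and their differences were not tested.

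**Figure D1:**
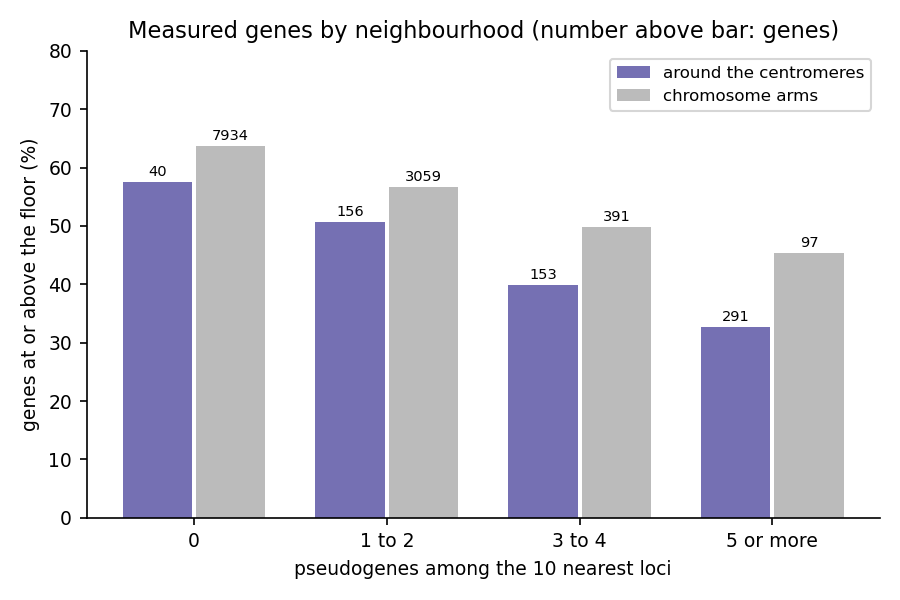
Share of genes at or above the floor on at least 1 array (y axis, percent) by the number of pseudogenes among the 10 nearest loci (x axis), for genes around the centromeres and for arm genes. The bars go down in both sets, to 32.6% around the centromeres and 45.4% in the arms where 5 or more neighbours are pseudogenes. Most of the genes around the centromeres with 0 such neighbours lie on chromosome 4.

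Transcript levels of the measured genes were close between ros1-1 and C24_WT. Of 258 genes, 254 (98.4%) differed by less than 1.5-fold, against 96.2% of measured arm genes, or 96.5% when arm genes were weighted to the same distribution over 10 signal classes. The median log2 ratio was -0.02 around the centromeres and -0.01 in the arms, or -0.0024 in arms matched on signal. Ratios above 0 were found in 122 genes and below 0 in 136. In 165 genes (64.0%) the ratio lay within 1 SD of the scatter between probe sets of a gene, as it did in 59.7% of arm genes. Among genes that reached the floor in both genotypes, the SD of the ratios was 0.23 around the centromeres and 0.26 in arms matched on signal. These differences between the sets were not tested, since genes are not replicates of a genotype.

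A higher signal in ros1-1 by 2-fold or more was found in 1 gene, and a lower signal of that size in 0. This is 0.388% and 0% of the measured genes, beside a background over all 7446 measured genes of the array of 0.161% higher and 0.201% lower. In arms matched on signal the shares were 0.155% and 0.221%, which corresponds to 0.400 and 0.571 genes among 258. At 1.5-fold, 2 genes were higher and 2 lower, or 0.775% in each direction, beside a background of 1.75% higher and 1.96% lower. The matched arms would give 4.22 and 4.80 genes at that threshold. The 1.5-fold counts lie under the background and the 2-fold count of higher genes above it. All these counts are too small to set apart from the background.

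**Figure D2:**
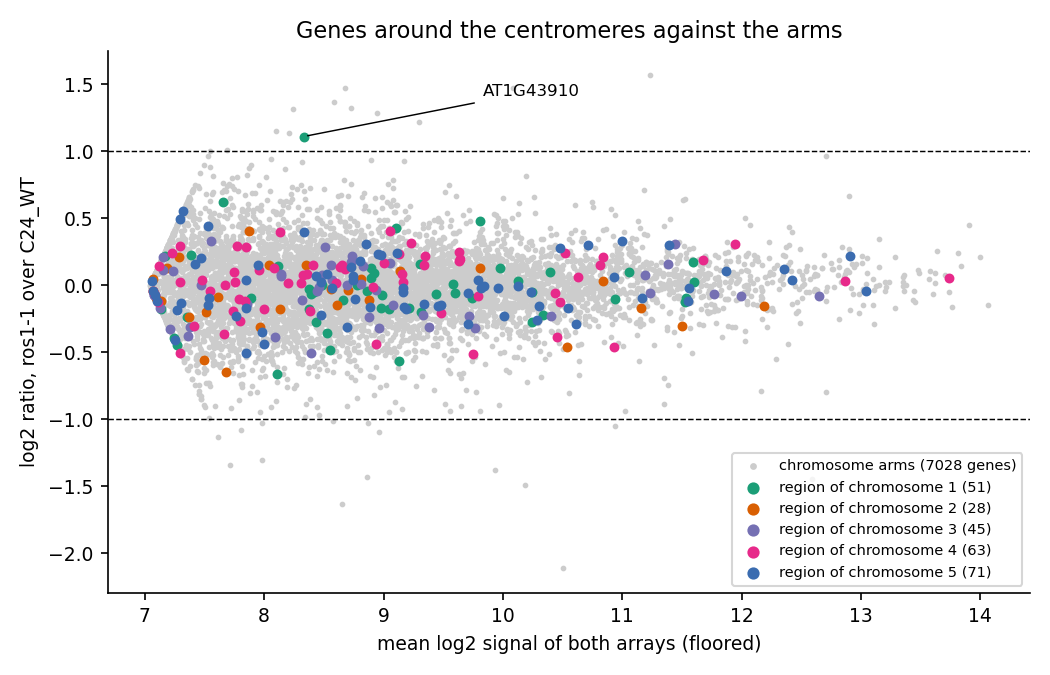
Log2 ratio of ros1-1 over C24_WT (y axis) against the mean log2 signal (x axis) for the 258 measured genes around the centromeres, coloured by chromosome, and 7028 arm genes in grey. Dashed lines mark 2-fold, and AT1G43910 at 1.11 is the sole coloured point beyond them.

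The gene beyond 2-fold was AT1G43910, which encodes an ATPase of the AAA type, a class of enzymes that remodel proteins with energy from ATP. It had a signal of 473 in ros1-1, against 219 in C24_WT, a log2 ratio of 1.11 or 2.16-fold. The wild-type value was above the floor but low. When the 60th percentile served as floor, that value was raised to it, which left a bound of 0.54 on the log2 ratio. With an offset added instead of a floor, the log2 ratio was 0.78. The gene stood among pseudogenes, which made up 7 of its 10 nearest loci. This setting was common: 291 of the 640 genes had 5 or more pseudogenes there. The 95 measured ones among them had a median log2 ratio of -0.02. Its direct neighbour AT1G43900 had signals of 768 in ros1-1 and 764 in C24_WT, a log2 ratio of 0.01, and the next measured gene on the other side, AT1G44000, known as SGRL, a relative of the stay-green genes of chlorophyll breakdown, was at 0.02. The higher signal was thus found in AT1G43910 and in neither of the flanking measured genes.

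The next gene in that direction, and the nearest to 2-fold from below, was AT1G34640, with 250 in ros1-1 and 163 in C24_WT, 1.54-fold higher. BZIP60, a transcription factor that switches on chaperone genes when unfolded proteins build up in the endoplasmic reticulum, had 1060 in ros1-1 and 761 in C24_WT, 1.39-fold higher. It was the brightest of the 5 genes with the largest ratios on this side. AT5G27930, which encodes a protein phosphatase 2C, had 216 in ros1-1 and 159 in C24_WT, 1.36-fold higher. AT1G44760 had 638 in ros1-1 and 474 in C24_WT. These ratios, from 0.43 to 0.62 on the log2 scale, are larger than the probe set scatter of 0.19 but stay under 2-fold. They were picked as the largest, and that scatter leaves out variation between plants and RNA extractions. In the signal class of AT1G34640 and AT5G27930, the SD of the ratios was 0.35 over arm genes and 0.33 over genes around the centromeres.

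The rest of the 12 largest in this direction lay between 0.32 and 0.41 on the log2 scale. They include AT4G03120, the U1-C protein of the spliceosome that recognises the start of introns, at 613 in ros1-1 and 463 in C24_WT. OS9, a lectin that hands misfolded glycoproteins of the endoplasmic reticulum to degradation, was at 371 in ros1-1 and 281 in C24_WT. AT3G42660, known as EOL1, which binds chromatin during DNA replication, had 211 in ros1-1 and 168 in C24_WT, near the floor on both arrays. AT5G35680, the translation initiation factor eIF1A, had 2296 in ros1-1 and 1827 in C24_WT, a log2 ratio of 0.33 at a bright signal. NDB2, an NAD(P)H dehydrogenase on the outer face of the inner mitochondrial membrane, had 668 in ros1-1 and 537 in C24_WT. AT2G07170 and AT4G03610 were at 0.41 and 0.40.

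On the lower side no gene reached 2-fold. The nearest was AT1G44970, a secreted class III peroxidase, with 219 in ros1-1 and 347 in C24_WT, a log2 ratio of -0.67 or 1.59-fold lower. AT2G05755 had 164 in ros1-1 and 257 in C24_WT, 1.57-fold lower. Both are dim in ros1-1. When the 60th percentile served as floor, the ros1-1 signal of AT1G44970 was raised to it, which left a bound of -0.09. AT1G42470, also called NPC1-1, a relative of the animal Niemann-Pick C1 sterol transporter, had 461 in ros1-1 and 683 in C24_WT, a log2 ratio of -0.56. AT2G05120, the nuclear pore protein NUP133, was also at -0.56, with 148 in ros1-1, just above the floor, and 219 in C24_WT.

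Of the other genes on this side, SAPX, MSRB6 and AT2G07360 were brighter. SAPX, the stromal ascorbate peroxidase that removes hydrogen peroxide in chloroplasts, had 722 in ros1-1 and 1027 in C24_WT, 1.42-fold lower. MSRB6, a methionine sulfoxide reductase that repairs oxidised proteins, had 1664 in ros1-1 and 2289 in C24_WT, 1.38-fold lower. AT2G07360, the TASH3 subunit of a plant endocytic adaptor complex, had 1266 in ros1-1 and 1740 in C24_WT, a log2 ratio of -0.46. A separate probe set for AT2G07360 read 526 in ros1-1 and 633 in C24_WT, -0.27, on the same side. The other measured gene with several probe sets, AT5G35430, had them on opposite sides, at 0.18 and -0.15. DER2.2, a derlin of the endoplasmic reticulum, had 422 in ros1-1 and 571 in C24_WT, -0.44. The others of the 12 were AT5G35570, of the O-fucosyltransferase family, at -0.51, the terpene synthase gene AT3G29410 at -0.51, AT1G34630 at -0.48, and the kinesin gene AT5G27550 at -0.44.

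**Figure D3:**
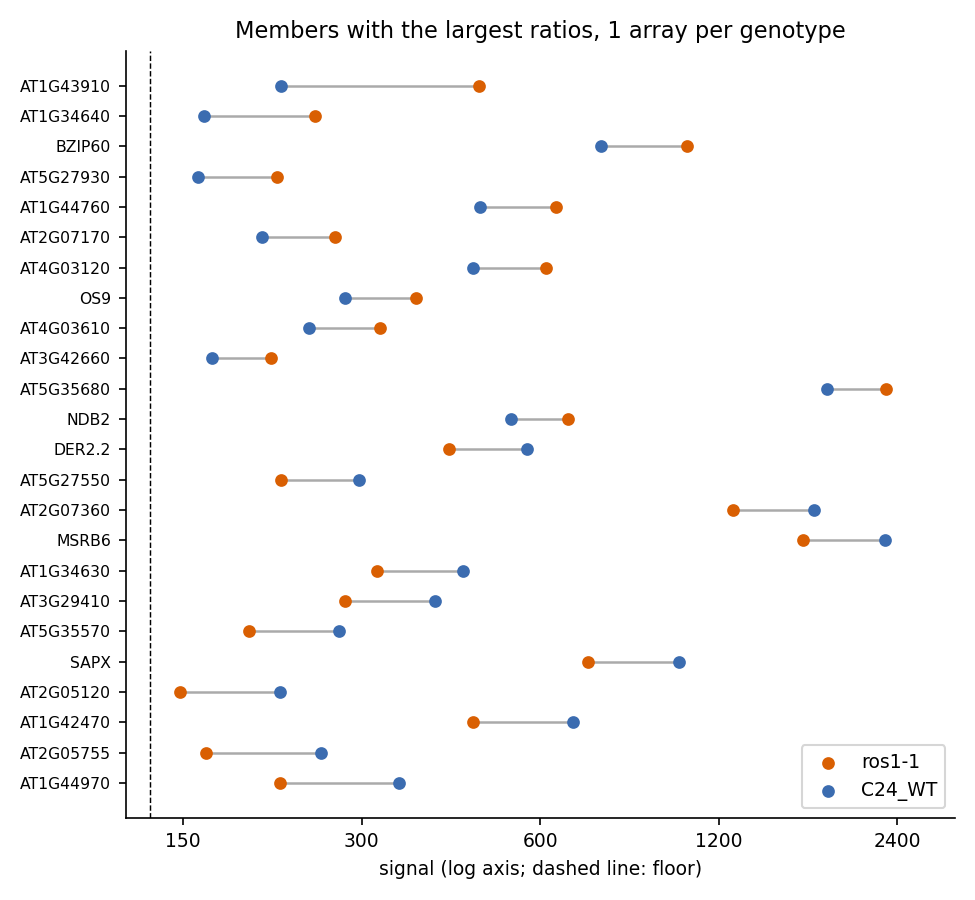
Signals in ros1-1 and in C24_WT (log x axis) of the 24 genes around the centromeres with the largest ratios among those that reached the floor in both genotypes, 12 in each direction, 1 array per genotype. AT1G43910 at the top has the longest line, with 473 in ros1-1 against 219 in C24_WT, and the other lines span 1.59-fold or less.

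Genes that reached the floor on 1 array would include a gene switched on or off between the genotypes. There were 6 such genes in ros1-1 alone and 17 in C24_WT alone, while the arms had 277 in ros1-1 alone and 242 in C24_WT alone. As shares of all genes around the centromeres, this was 0.938% in ros1-1 and 2.66% in C24_WT, against 2.41% in ros1-1 and 2.11% in C24_WT in the arms. The majority in C24_WT was found on each of the 5 chromosomes, but the counts per chromosome were between 0 and 4. A floor at the 25th percentile gave 19 in ros1-1 and 25 in C24_WT. One at the 60th gave 6 in ros1-1 and 7 in C24_WT, so the imbalance was smaller at either floor. The arms gave 344 in ros1-1 and 300 in C24_WT at the 25th, and 203 in ros1-1 and 240 in C24_WT at the 60th. With quantile normalization the counts around the centromeres stayed at 6 in ros1-1 and 17 in C24_WT. All genes around the centromeres that reached the floor on 1 array were dim. The largest bound was that of AT5G27440, with 194 in ros1-1 and 113 in C24_WT, at least 1.47-fold higher. AT5G28590 had 187 in ros1-1 and 130 in C24_WT, at least 1.41-fold higher. The gene AT4G04630 had 80.1 in ros1-1 and 188 in C24_WT, at least 1.42-fold lower. The deposited ros1-1 value of AT4G04630 is far under the floor, and a floor at the 25th percentile gave a log2 ratio of -1.23.

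The further bounds were small. AT1G36070 was at least 1.36-fold lower, with 124 in ros1-1 and 180 in C24_WT, and AT5G33300 at least 1.33-fold lower, with 109 in ros1-1 and 175 in C24_WT. AT1G44830, a transcription factor of the AP2/ERF family, had 122 in ros1-1 and 174 in C24_WT, at least 1.32-fold lower. AT3G32400, a formin that nucleates actin, had 115 in ros1-1 and 166 in C24_WT. On the higher side AT3G29630 was at least 1.16-fold higher, and hemf2, a coproporphyrinogen oxidase gene of heme and chlorophyll synthesis, had 146 in ros1-1 and 123 in C24_WT. The bound of AT2G07773 was 1.03-fold.

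The 3 brightest genes of each region differed little between the genotypes. ATPC1, the gamma subunit of the chloroplast ATP synthase, was the brightest of all, with 13898 in ros1-1 and 13410 in C24_WT, a log2 ratio of 0.05. ATHM2, the plastid thioredoxin m2, had 7563 in ros1-1 and 7408 in C24_WT. On chromosome 5 the brightest were ribosomal protein genes: AT5G27700 (S21) had 8300 in ros1-1 and 8534 in C24_WT, AT5G27850 (L18) had 8300 in ros1-1 and 7121 in C24_WT, and AT5G35530 (S3) had 5562 in ros1-1 and 5403 in C24_WT. On chromosome 3, AT3G30390, an amino acid transporter, had 6250 in ros1-1 and 6593 in C24_WT, and AT3G42050, subunit H of the vacuolar proton pump, had 3409 in ros1-1 and 3563 in C24_WT. AT3G29240 was at -0.08.

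On chromosome 2 the 3 brightest genes were all slightly lower in ros1-1. AT2G10940, a proline-rich protein of the lipid transfer family, had 4410 in ros1-1 and 4913 in C24_WT. AT2G05790, a glycosyl hydrolase of the beta-1,3-glucanase type, had 2610 in ros1-1 and 3215 in C24_WT, a log2 ratio of -0.30, and the subtilase AT2G05920 was at -0.17. On chromosome 1 the genes ty2, the plastid thioredoxin y2, and AT1G42960 were at -0.09 and 0.17. AT4G02920 on chromosome 4 had 4394 in ros1-1 and 3542 in C24_WT, a log2 ratio of 0.31. The largest difference among these 15 genes was thus 1.24-fold, in AT4G02920. The ratios of ATPC1, ATHM2 and AT1G44000 turned slightly negative after quantile normalization and after removal of an intensity trend, at -0.02, -0.04 and -0.01 under the first of these.

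The 5 regions had medians on either side of 0. The median log2 ratio was -0.06 over 51 measured genes on chromosome 1, -0.09 over 28 on chromosome 2, -0.05 over 45 on chromosome 3, 0.05 over 63 on chromosome 4 and -0.02 over 71 on chromosome 5. On chromosome 4, 41 genes had a ratio above 0 and 22 below, and on chromosome 2 the numbers were 10 and 18. The medians of the arms of these chromosomes lay between -0.01 and 0.00. Whether the region medians differ from those of the arms was not tested. The inner genes of the regions had a median of -0.03 and the outer genes of -0.02.

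**Figure D4:**
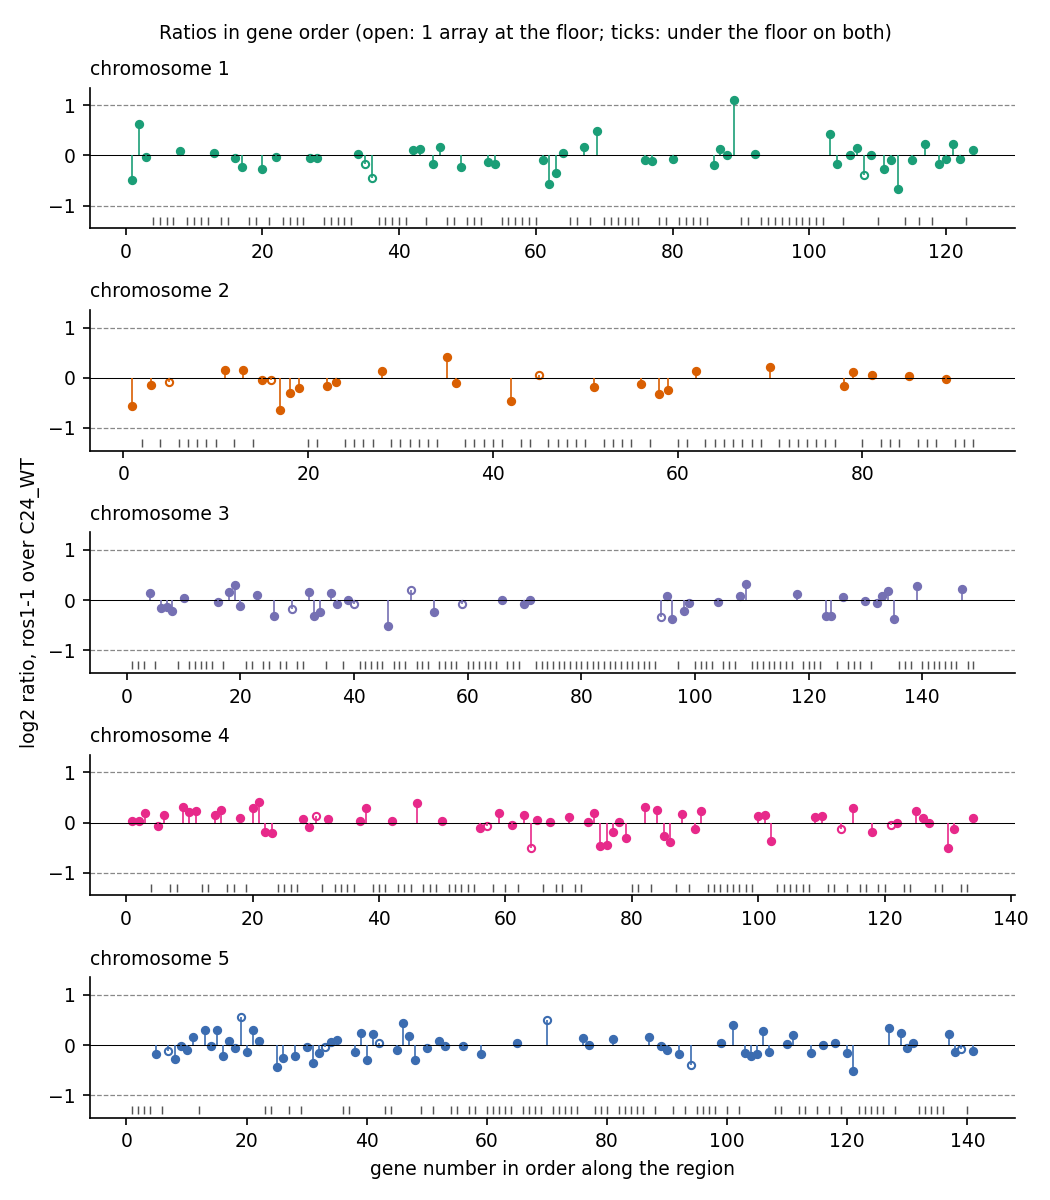
Log2 ratio of ros1-1 over C24_WT (y axis) for each gene in its order along the 5 regions (x axis); filled points reached the floor in both genotypes, open points in 1, and grey ticks mark genes that reached it in neither. Points lie on either side of 0 along each region, and long stretches of chromosomes 2 and 3 hold ticks with few points.

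Direct neighbours shared a direction about as often as not. Among 39 pairs of adjacent genes measured on both arrays by probe sets of plain type, 20 (51.3%) had ratios of the same sign, against 49.0% of 1787 such pairs in the arms. The runs looked for, 2 or more consecutive measured genes at least 1.5-fold different in 1 direction, numbered 0. As 2 genes passed 1.5-fold in each direction, hardly any run was possible, and this count says little about neighbours. AT1G34630 and AT1G34640, which lie side by side, were at -0.48 and 0.62. The tandem genes MSRB5 and MSRB6 were at 0.19 and -0.46, with signals for MSRB5 of 3493 in ros1-1 and 3060 in C24_WT. The sugar transporter genes SFP1 and SFP2, also side by side, were at 0.30 and -0.02. A pair that shared its direction was AT1G42470 and AT1G42480, at -0.56 and -0.36. All gene pairs named in this paragraph were chosen after their values were seen. They do not stand for the 39 pairs, of which 20 shared a sign.

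Genes of known role were grouped after the values had been seen, 46 genes in 7 groups, and in each group ratios lay on both sides of 0. For protein synthesis, 6 of 9 genes were above 0, with a median of 0.11. The ribosomal protein genes AT5G27770 (L22) and AT5G28060 (S24) were at 0.11 and -0.02, the initiation factor eIF5 gene AT1G36730 at -0.22, and AT4G02930, the mitochondrial elongation factor Tu, at 0.21. YAO, a nucleolar protein of ribosome assembly, was at 0.15. For quality control in the endoplasmic reticulum, BZIP60 and OS9 were the higher and DER2.2 the lower member, and the signal peptidase subunit gene AT5G27430 was at -0.05. These 4 genes thus gave 2 values on each side.

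Redox and plastid genes had a median of 0.02, with 5 of 9 above 0. MSRB3, like MSRB5 and MSRB6 a methionine sulfoxide reductase, had 391 in ros1-1 and 386 in C24_WT, so the 3 measured reductases were at 0.02, 0.19 and -0.46. Membrane traffic and protein turnover had 5 of 7 genes below 0 and a median of -0.06. ATG8B and ATG8D, ubiquitin-like proteins that build autophagosomes, were at 0.15 and -0.04, VPS2.1 of the endosomal sorting complex at 0.13, and the proteasome ATPase RPT4 gene AT1G45000 at -0.10. For transport and metabolism, GME, which makes GDP-galactose for ascorbate and cell walls, had 5468 in ros1-1 and 5026 in C24_WT. ALN, the allantoinase of purine breakdown, was at -0.30 with signals of 153 in ros1-1 and 189 in C24_WT, near the floor, and AOP1, of the family of glucosinolate side-chain enzymes, was at 0.10.

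Signalling and development genes had a median of -0.02. SEU, a transcriptional co-repressor of flower development, had 595 in ros1-1 and 684 in C24_WT, a log2 ratio of -0.20. GID1C, a gibberellin receptor, was at -0.09, GLR3.3, a glutamate receptor-like channel of wound signals, at 0.05, the protein phosphatase gene TOPP8 at -0.29, and PCN, a WD-repeat protein of embryo and meristem growth, at 0.13. DAYSLEEPER, a host gene derived from the transposase of an hAT transposon, had 485 in ros1-1 and 497 in C24_WT, a log2 ratio of -0.04. It lies in the region of chromosome 3, where 4 of its 10 nearest loci are pseudogenes. Of the 55 loci on 7 lists of well-known genes of these regions, 6 had a single-gene probe set and 5 were measured, ATPC1, NDB2, SAPX, SEU and DAYSLEEPER, with 0 of them at least 2-fold different. In the annotation used, the lists for hormones, for carbon, nitrogen and lipid metabolism and for housekeeping had 0 genes with a single-gene probe set. Most of the 55 well-known loci were thus left out, and the 5 measured ones do not stand for them. Whether the array has probe sets for the loci left out was not examined.

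**Figure D5:**
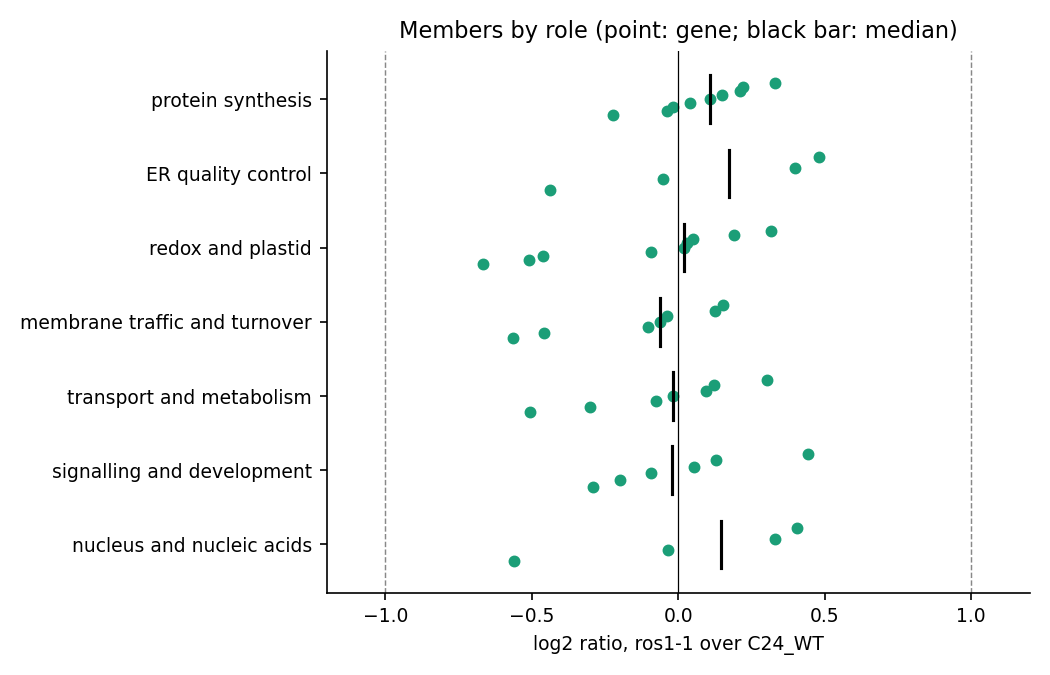
Log2 ratio of ros1-1 over C24_WT (x axis) of 46 measured genes around the centromeres in 7 groups by role (y axis); each point is a gene, black bars are medians and dashed lines mark 2-fold. Each group has points on either side of 0, with medians between -0.06 and 0.17.

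The genes under the floor in both genotypes include a locus known from studies of DNA methylation. QQS, an orphan gene of starch metabolism whose expression varies with the methylation of nearby repeats, had signals of 36.3 in ros1-1 and 29.2 in C24_WT. AOP3, a glucosinolate enzyme gene that is active in some accessions, had 54.3 in ros1-1 and 6.13 in C24_WT. The histone deacetylase gene HDA7 had 4.51 in ros1-1 and 6.59 in C24_WT, and the floral regulator SAP had 31.1 in ros1-1 and 60.9 in C24_WT. The MADS-box genes AGL79, AGL89 and AGL101 and ANX2, a receptor kinase of pollen tubes, were under the floor as well. Ratios are not given for such genes. In all, 24 of the 382 genes under the floor carried a symbol other than their locus code, and 28 of the 258 measured genes did. The genes of this paragraph were chosen after their values were seen.

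A stretch of chromosome 2 needs its own account, because the reference chromosome carries a large copy of the mitochondrial genome near its centromere. The 27 genes with codes from AT2G07660 to AT2G07799, limits chosen after the values were seen, included 7 measured ones. All 7 had probe sets of the _s_at type, which can take signal from related sequences, and 18 of the 27 had such probe sets. Their ratios ran from -0.31 to 0.21 with a median of -0.12, 3 above 0 and 4 below, at signals from 135 to 264 in ros1-1 and from 104 to 299 in C24_WT. How far these signals come from mitochondrial transcripts was not tested. Over all regions, 32 of the 640 genes had a probe set that can take signal from related genes, and with plain probe sets alone the counts at 2-fold were the same, 1 higher and 0 lower.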

How the data were processed

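Total RNA of ros1-1 and C24_WT seedlings was measured on 1 array each. The authors deposited 1 linear intensity for each probe set, made with MAS5 according to the submitters' processing notes. Its version and scaling target, and any detection calls, were not given in the sources used here. Trimmed means (2% from each end) were 500.04 on both arrays. Of 22810 probe sets, 64 controls were set aside. Names came from the platform annotation, brought up to date with the gene table of TAIR10.1, which served for names, gene types and gene order: 13513 probe sets had 1 gene, 503 several and 8730 none, and 13436 matched. A gene's value is that of its brightest probe set. The floor, the ratio and the 2-fold rule are as given in the text.

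Arm genes were weighted to the 258 measured genes' shares of 10 signal classes. Named genes were the 12 largest ratios in each direction, the 5 largest bounds in each direction, the 3 brightest per region, measured list genes, runs of neighbours and the genes nearest to 2-fold. Others are said to be chosen after their values were seen. The members and lists were chosen with earlier results of these data known. The gene table holds no product names, so lists by product word were not formed. The 7 groups by role rest on general knowledge of single genes and were made after the values were seen. No promoter or protein sequence was used. The steps were tested on simulated data with large changes in bright probe sets only, which does not cover small changes or dim genes. Python 3.11.15, pandas 2.3.3 and statsmodels 0.14.6 were used. The alternatives were other floors, an offset equal to the floor, median centring, quantile normalization, a lowess trend (span 0.3), the mean of probe sets, plain _at probe sets, 1.5-fold and 3-fold rules, inner genes alone, and each region left out. The number of arrays limits all precision.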

Additional observations from a re-analysis of the deposited data

How the results depend on the processing

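No paired analysis was possible because each genotype has 1 array. Counts at 2-fold moved with the floor and the threshold. A floor at the 25th percentile gave 2 genes higher in ros1-1, a floor at the 60th gave 0, and an added offset gave 0. Other counts of higher genes were 2 at 1.5-fold, 0 at 3-fold and 0 without the region of chromosome 1, which holds AT1G43910. Genes lower in ros1-1 numbered 3 at the 25th percentile and 2 at 1.5-fold. The calls at the 25th percentile were AT1G43910 and AT4G03950 higher, and AT4G04630, AT5G35670 and AT5G35940 lower. The share of measured genes was 58.9% at the 25th percentile (78.4% in the arms), 26.7% at the 60th (39.0% in the arms) and 34.2% among inner genes. The SD of the ratios was 0.29 and 0.19 at these floors and 0.17 with the offset, against 0.30, 0.23 and 0.20 in the arms. The counts for genes at the floor on 1 array, and their alternatives, were added after seeing the data: 19 in ros1-1 at the 25th percentile and 7 in C24_WT at the 60th were the values that moved. For 51 named genes, 16 of 388 values moved by more than the probe set scatter, and 6 changed sign, those of ATPC1, ATHM2 and AT1G44000. Low signal leaves bounds, or no ratio, for the genes under the floor.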
